A study of Homo sapiens with 23 samples.

Results

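Acetylation of lysine 12 of histone H4 (H4K12ac) was compared between SW480 colorectal cancer cells given sodium butyrate (NaBu) and untreated SW480 cells, in 4 of the 23 chromatin immunoprecipitation libraries (ChIP-seq) of the study. The members were the lists of enriched regions of these libraries. On chromosomes 1 to 22 and X the lists held 88658 regions (NaBu replicate 1), 11680 regions (NaBu replicate 2), 208823 regions (untreated replicate 1) and 191193 regions (untreated replicate 2). Genes were compared by the regions at their transcription start sites (TSS), counted within 1 kb on either side, and by the share of the gene body that regions covered.

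SW480 is an established epithelial line from a colon adenocarcinoma. Cells of the NaBu group had received 1 mM NaBu overnight, for 12 to 16 h, and cells of the untreated group had received no short-chain fatty acid. Both groups had 2 experimental replicates, and no source said whether these came from separate cultures, so p-values measure the spread between these libraries, which may be technical. The study also mapped H3K18 acetylation and the propionyl and butyryl forms of both lysines and held 3 pooled input lists.

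Histone H4 acetylation removes a positive charge from the histone tail and offers a docking site to bromodomain proteins, and it lies mainly at promoters and enhancers of active genes. Butyrate is made from dietary fibre by gut bacteria, fuels the normal colon epithelium and inhibits class I and II histone deacetylases. H4K12 is acetylated on new histones by HAT1 before they enter chromatin, and on chromatin by other acetyltransferases.

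Several measured facts limit every comparison. NaBu lists carried another run tag than the untreated lists, so treatment and sequencing run cannot be told apart. File names of the NaBu acetyl lists bore the tag of control libraries, although title and treatment labels both gave NaBu, and the labels were followed. The commonest background solved from the deposited values was 4.29 fragments per kb in both NaBu lists, against 38.5 and 31.9 fragments per kb in the untreated lists, which is 8.97 and 7.44 times as much. These values are as scaled in the lists, where the NaBu pileup comes in steps of under 1 fragment. Before that scaling they were 5.04 and 21.7 fragments per kb in NaBu 1 and NaBu 2, and unchanged in the untreated lists. Fold enrichment and −log10 p therefore compare regions only within a list, and most results below rest on ranks within a list. At equal numbers of regions the untreated regions were also wider, with medians of 1089 and 1016 bp against 386 and 306 bp.

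The lists were first cut to the 11680 regions with the highest −log10 p in each, the length of the shortest list. NaBu 2 therefore kept its full list, down to a −log10 p of 2.0003. The lowest −log10 p kept was 5.995 in NaBu 1, 21.3 in untreated 1 and 18.6 in untreated 2. Of the 11680 regions of NaBu 2, 2917 had q under 0.05, while every region of the other cut lists did. Markers of the labelled cell type were checked in the cut lists of all libraries. Of 15 markers of colon epithelium, 5 held a TSS region in every library, namely EPCAM, KRT8, KRT18, KRT19 and CLDN4. Over all protein-coding genes 7.6% did. KRT8 and KRT18 are neighbours with the same best region in NaBu 1 and both untreated lists, so they do not count separately. KRT20, CDX1, CDH17, GPA33 and CEACAM5 had no TSS region in any of the 4 full lists. None of 15 markers of blood, stromal, neural and other lineages and none of 20 olfactory receptor genes of chromosome 11 held one in any. In the full untreated lists 6 and 5 of the 15 other-lineage markers did hold a region, and in the full NaBu lists 1 and 0 did.

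Replicates resembled each other more in the untreated group. Of the cut lists, 78.0% of untreated 1 regions overlapped a region of untreated 2, while 47.5% of NaBu 1 regions overlapped a region of NaBu 2. Across the groups, 39.4% of NaBu 1 regions and 45.5% of NaBu 2 regions overlapped a region of untreated 1. Over 3853 genes with a TSS region in all 4 full lists, the correlation of normal scores of the ranks across genes was 0.91 between the untreated libraries, 0.60 between the NaBu libraries and on average 0.45 across the groups. These points share libraries and are not independent, so the correlations are descriptive.

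The H4K12ac regions of the cut lists lay farther from promoters in NaBu, where NaBu 2 entered with its full list. At equal numbers, 27.6% and 31.2% of NaBu summits lay within 1 kb of a TSS, against 51.4% and 51.7% of untreated summits. The means were 29.4% ± 2.57 (SD, n = 2) and 51.5% ± 0.16 (SD, n = 2), a difference of -22.1 percentage points. The groups did not overlap, and the two-sided exact permutation test gave p = 0.3333, the smallest value that 2 against 2 libraries allow. Regions 10 to 100 kb from a TSS made up 41.5% and 40.1% of NaBu lists and 26.5% and 26.6% of untreated lists. Median distances from summit to TSS were 8391 and 6964 bp in NaBu and 874 and 865 bp untreated. With every region of every list the direction turned round and the groups overlapped. The promoter shares were then 11.1% and 31.2% in NaBu and 11.9% and 12.7% untreated, a difference of 8.90 points, with the high value in the short list of NaBu 2.

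**Figure D1:**
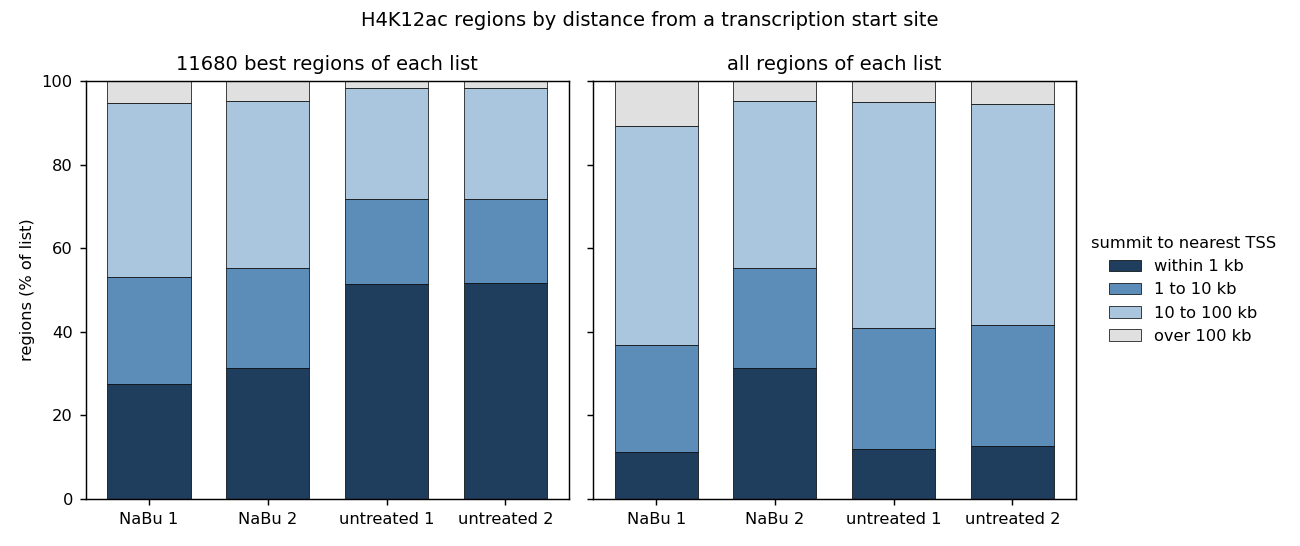
Share of H4K12ac regions (y axis, % of each list) by distance of the summit from the nearest TSS, for the 4 libraries (x axis), with equal numbers of regions (left) and all regions (right). At equal numbers the darkest block, within 1 kb, reaches 27.6% and 31.2% in NaBu and 51.4% and 51.7% untreated, and with all regions it is largest in NaBu 2.

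The same change of location was measured for H3K18ac, whose NaBu and untreated lists carried the same pair of run tags. Its promoter shares were 45.5% and 37.6% in NaBu and 57.6% and 59.5% untreated, a difference of -17.0 points. The 2 marks differed by -5.11 points in this change, and the exact permutation test over 36 arrangements gave p = 0.667, where the smallest possible p is 0.0556.

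At single TSS windows the 11680 best regions lay over 4086 and 4240 of 38726 genes in NaBu, and over 7606 and 7663 genes in untreated cells. A gene was called gained when both NaBu lists and neither untreated list held a region, and lost in the opposite case. By that rule 314 genes were gained (0.811% of all genes), 2704 were lost (6.98%) and 2163 were held by all 4 libraries (5.59%). Of the gained genes, 64.3% were protein-coding, compared with 72.4% of the lost genes.

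Which class was larger depended on how the lists were matched. Cutting every list to the same covered length, 4.51 Mb, left 8034 and 11680 NaBu regions but only 2782 and 2928 untreated regions. Gained genes then numbered 1034 (2.67%) and lost genes 478 (1.23%), so that the balance reversed. This alternative was chosen after the data were seen. The 2 ways shared 244 gained and 439 lost genes, and no gene was gained by one and lost by the other. Promoter shares still differed at equal covered length, at 30.7% and 31.2% in NaBu and 57.6% and 58.0% untreated. Uncut lists gave 48 gained (0.124%) and 8008 lost genes (20.7%), with 3853 held by all 4 (9.95%). Scaling the untreated values to the background depth of the NaBu lists, where regions were kept while p stayed under 0.01, gave 193 gained (0.498%) and 3655 lost genes (9.44%), with 3547 held by all 4 (9.16%).

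**Figure D2:**
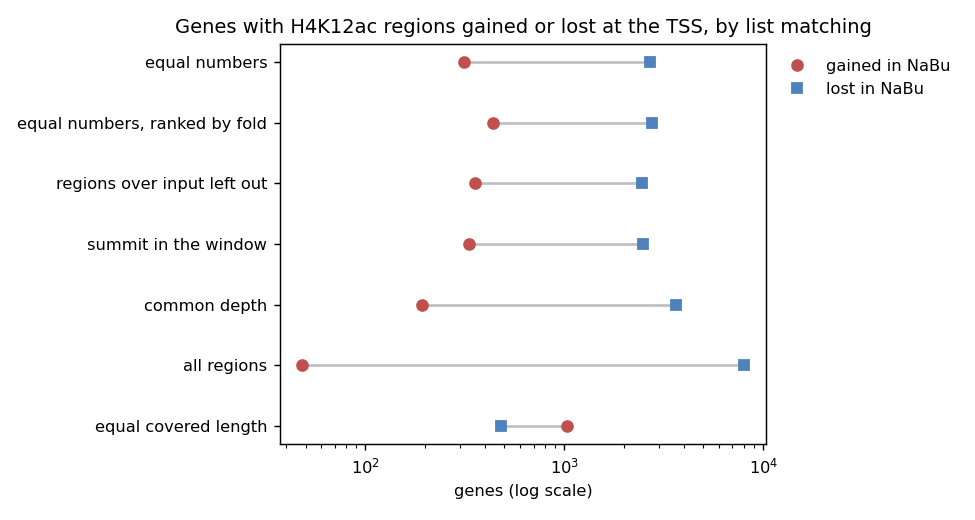
Number of genes gained (circles) or lost (squares) at the TSS in NaBu (x axis, log scale) under 7 ways of matching or filtering the lists (y axis). Lost genes outnumbered gained genes in 6 of the 7 settings shown, with 2704 against 314 at equal numbers, and the order reversed at equal covered length, with 478 against 1034.

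Gained genes were mostly present at weaker ranks in the full untreated lists. Of the 314 gained genes, 272 had a region in both full untreated lists, where the median rank was 19808 and 21221, and 22 had one in neither. Of the 2704 lost genes, 1252 had a region in the full list of NaBu 1, at a median rank of 31928, and none had one in NaBu 2, whose full list is the cut list. At the common depth 91 gained genes and 1452 lost genes kept their class. Summit height is the fragment pileup as a multiple of each library's commonest background. It was solved from the same fold and p values that set the ranks, so heights are no separate evidence of a gain or loss. Medians at gained genes were 15.2 and 8.93 in NaBu and 8.16 and 7.83 untreated. The quartiles there, 7.10 to 11.1 in NaBu 2 and 6.23 to 10.1 in untreated 1, overlapped. At lost genes the median was 9.34 in NaBu 1, where 1252 genes had a region, and 14.1 and 14.3 untreated. At genes held by all 4 it was 18.7 and 12.2 in NaBu and 20.9 and 21.4 untreated.

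Sequences are shown for 5 promoters and 2 distal regions because CpG content differed between gained and lost regions. For promoters the 250 bases before the RefSeq start site are printed (RefSeq, build GRCh38.p14), and for distal regions 200 bases around the summit (build hg38, plus strand). Capitals mark every CpG dinucleotide. ARHGEF38, MACC1 and HNF4A are gained promoters with few CpG, TLNRD1 is a gained promoter with many, and CEP76 is a lost promoter. MACC1 and HNF4A were picked by name, so these examples do not show how common few CpG are among gained promoters.
ARHGEF38, chr4:105552370-105552619, plus strand: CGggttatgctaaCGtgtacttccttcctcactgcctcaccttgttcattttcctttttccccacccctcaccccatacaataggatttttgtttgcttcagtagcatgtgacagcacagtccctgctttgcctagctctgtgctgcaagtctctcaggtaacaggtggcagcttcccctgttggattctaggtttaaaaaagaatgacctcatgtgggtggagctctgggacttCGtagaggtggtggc
MACC1, chr7:20217385-20217634, minus strand: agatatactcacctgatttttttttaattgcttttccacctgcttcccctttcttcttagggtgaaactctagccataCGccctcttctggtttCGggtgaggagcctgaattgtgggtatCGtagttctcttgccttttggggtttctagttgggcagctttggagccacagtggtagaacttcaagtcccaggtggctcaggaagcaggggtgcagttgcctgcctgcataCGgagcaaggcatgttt
HNF4A, chr20:44355449-44355698, plus strand: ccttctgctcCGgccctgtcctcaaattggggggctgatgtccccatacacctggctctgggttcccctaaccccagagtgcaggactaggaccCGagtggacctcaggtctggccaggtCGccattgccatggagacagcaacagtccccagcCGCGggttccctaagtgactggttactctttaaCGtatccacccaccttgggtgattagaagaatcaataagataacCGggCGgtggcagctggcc
TLNRD1, chr15:81000673-81000922, plus strand: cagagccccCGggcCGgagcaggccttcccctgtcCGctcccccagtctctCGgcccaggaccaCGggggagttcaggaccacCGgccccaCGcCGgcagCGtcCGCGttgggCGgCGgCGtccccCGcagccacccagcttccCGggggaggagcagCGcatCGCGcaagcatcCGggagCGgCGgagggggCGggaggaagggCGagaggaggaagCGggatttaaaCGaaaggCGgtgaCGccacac
CEP76, chr18:12702778-12703027, minus strand: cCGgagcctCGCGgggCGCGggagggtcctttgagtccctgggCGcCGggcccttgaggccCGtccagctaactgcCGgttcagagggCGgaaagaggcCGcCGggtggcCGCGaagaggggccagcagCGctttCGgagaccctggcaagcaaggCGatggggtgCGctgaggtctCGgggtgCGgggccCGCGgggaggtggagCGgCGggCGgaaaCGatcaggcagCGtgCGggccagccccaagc
Region 17056 bp from PTPRC, chr1:198621301-198621500: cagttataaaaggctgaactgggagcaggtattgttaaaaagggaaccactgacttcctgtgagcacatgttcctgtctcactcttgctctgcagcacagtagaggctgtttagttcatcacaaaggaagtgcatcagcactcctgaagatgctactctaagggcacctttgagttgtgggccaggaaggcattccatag
Region 7297 bp from BOD1, chr5:173623856-173624055: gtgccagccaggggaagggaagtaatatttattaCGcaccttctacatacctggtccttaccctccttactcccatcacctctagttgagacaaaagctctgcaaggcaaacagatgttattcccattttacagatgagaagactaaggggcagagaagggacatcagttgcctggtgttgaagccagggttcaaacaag

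These promoters hold 3 (ARHGEF38), 4 (MACC1), 8 (HNF4A), 28 (TLNRD1) and 28 (CEP76) CpG in 250 bases, and the distal windows hold 0 and 1 in 200 bases. Over all genes the ratio of observed to expected CpG, from 250 bases before to 50 after the GENCODE start, had a median of 0.71 at gained, 0.82 at lost and 0.83 at retained promoters, against 0.45 at all 38723 promoters with full sequence. A ratio of 0.6 or more was met by 59.7% of gained, 78.2% of lost and 41.5% of all promoters. The classes differ in their share of protein-coding genes. Among protein-coding genes alone it was met by 70.6% of gained, 82.5% of lost and 58.4% of all promoters, with medians of 0.78, 0.83 and 0.70. The GC box GGGCGG on either strand, which itself contains a CpG, occurred in 54.6% of gained, 63.5% of lost and 38.0% of all promoters. The AP-1 site TGAGTCA on either strand occurred in 4.47%, 3.74% and 4.86%. A match describes the letters only and says nothing of a bound factor.

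ARHGEF38, a guanine nucleotide exchange factor gene, led the gained protein-coding promoters by its lower rank of the pair. Its best region ranked 459 and 285 in NaBu, and 16412 and 37875 in the longer untreated lists. Summit height was 37.4 and 22.2 times the background in NaBu, above the 8.46 and 6.26 of the untreated libraries.

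MACC1, which encodes a regulator of the MET receptor associated with metastasis of colon cancer, had the weakest untreated ranks among the 10 leading gained protein-coding genes. It ranked 1056 and 1443 in NaBu and 153652 and 149178 untreated, in untreated lists of 208823 and 191193 regions. Local background at MACC1 differed between the groups as well. In NaBu it was 9.58 and 8.92 times the commonest background of the library, and in untreated cells 1.96 and 2.01 times. Its part in the ranking was not tested. The lncRNA GIRGL shares the same region and values.

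HNF4A, the nuclear receptor that maintains intestinal and hepatic epithelial identity, was the only gained member of a 24-gene list of enterocyte and goblet cell differentiation. Its ranks were 1705 and 1217 in NaBu and 18042 and 25097 untreated. Summit height was 26.9 and 16.5 times the background in NaBu and 11.4 and 10.4 times untreated. The lncRNA R3HDML-AS1 is served by the same region, which overlapped a region of an input list.

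PMAIP1, which encodes the proapoptotic BH3-only protein NOXA, ranked 1425 and 946 in NaBu and 20271 and 45615 untreated. Its local background stood at the commonest value of each library in all 4, and summit height was 19.9 and 13.3 in NaBu against 5.04 and 3.83 untreated. TLNRD1, whose product bundles actin, had heights of 28.0 and 21.1 in NaBu and 9.79 and 9.39 untreated. WIPI1, an autophagy gene, ranked 424 and 909 in NaBu and 26856 and 11917 untreated. SMIM6, which encodes a small membrane protein, ranked 1073 and 1470 against 84602 and 132762.

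The remaining leading gained protein-coding genes were C19orf47, MOSPD3, SLC22A15 and ENSG00000285526. Their NaBu ranks ran from 95 to 1260, and their untreated ranks from 11804 to 40394. ENSG00000285526 and the lncRNA HPN-AS1 share 1 region. Of all gained genes, 27.1% had a best region that overlapped a region of an input list, against 28.4% of lost and 36.5% of retained genes, and MOSPD3, ARHGEF38, SLC22A15 and SMIM6 were among them.

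Of the 22 gained genes with no TSS region in either full untreated list, 5 were protein-coding. Among these were COL1A2, a fibrillar collagen gene, MUCL1, a small mucin-like gene, RNF111, a ubiquitin ligase of the TGF-beta pathway, and GAST, the gastrin gene. They were named after their values were seen, because the count was small. COL1A2 ranked 4868 and 4356 and MUCL1 2535 and 6909 in the NaBu lists. GAST at 5750 and 11310 and RNF111 at 5702 and 8837 were weaker, and all 22 genes were also gained at the common depth.

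Among the 10 lost protein-coding promoters with the best ranks, most had no region in either full NaBu list. CEP76, a centriole duplication gene, ranked 25 and 41 in untreated cells with heights of 52.8 and 54.4 times background, and it was in neither NaBu list. METTL16, an RNA methyltransferase gene, ranked 101 and 159, with heights of 45.7 and 45.6. SLBP, whose product binds the stem-loop of replication-dependent histone mRNA, ranked 225 and 99, and TCF3, a basic helix-loop-helix transcription factor gene, ranked 229 and 63. BZW1, PHRF1 and HYAL2 were likewise absent from both NaBu lists and ranked between 105 and 274 untreated. The best region of PHRF1 overlapped a region of an input list, and PHRF1 was not lost once such regions were left out.

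Some leading lost genes kept a weaker region in NaBu 1. C17orf49, at ranks 38 and 37 in untreated cells, stood at 20782 in NaBu 1, where its height was 9.34 against 52.5 and 60.7 untreated. CSNK1D, the casein kinase 1 delta gene, ranked 93 and 119 untreated and 12083 in NaBu 1. SLC16A3, which encodes the lactate and monocarboxylate transporter MCT4, ranked 313 and 310 untreated and 18147 in NaBu 1. Each of these was absent from NaBu 2. In at least 1 library the best regions of C17orf49 and SLC16A3 overlapped a region of an input list. SLC16A3 was not lost once such regions were left out. Among named lncRNAs, ZRANB2-DT, MUC12-AS1 and PTGES2-AS1 ranked 317 to 515 in untreated cells and were in neither NaBu list.

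**Figure D3:**
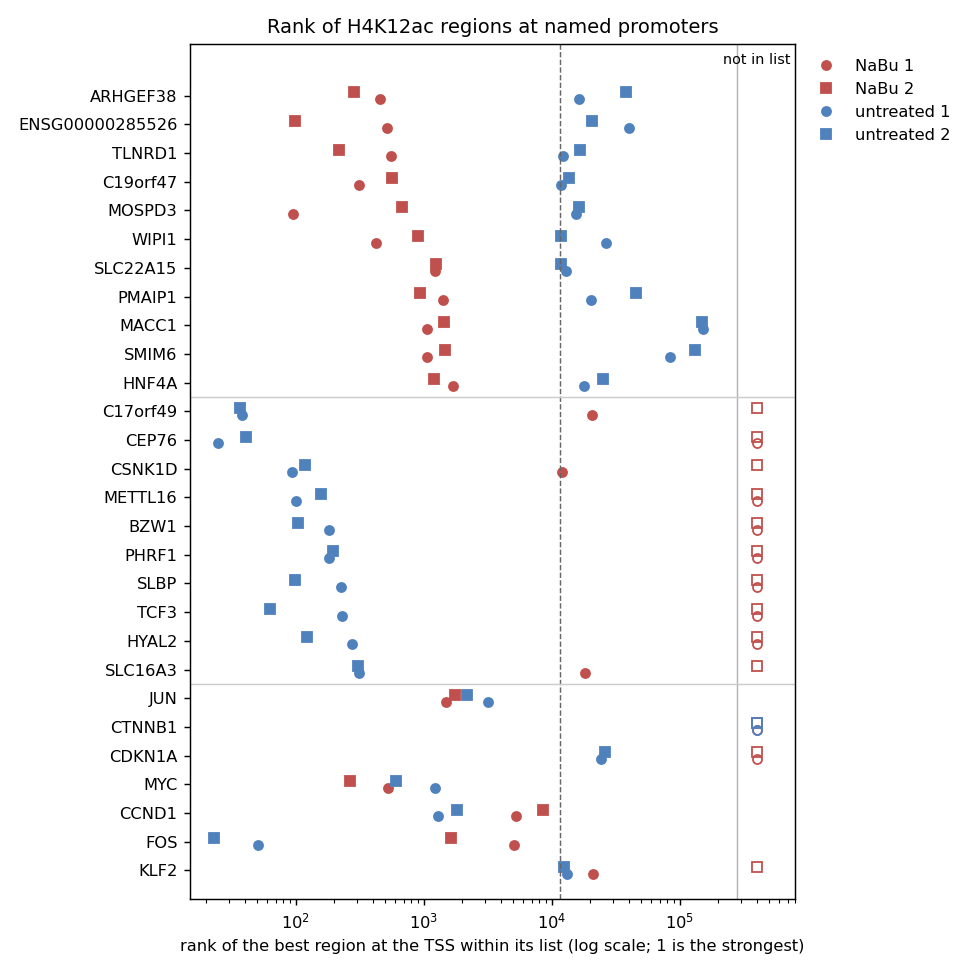
Rank of the best H4K12ac region at the TSS within its own list (x axis, log scale, 1 is the strongest) for leading gained genes (top), leading lost genes (middle) and genes given regardless of their values (bottom). Circles are replicate 1, squares replicate 2, open symbols genes not in the list, and the dashed line marks rank 11680. Gained genes sit left of it in NaBu only, and FOS, JUN, MYC and CCND1 sit left of it in all 4 libraries.

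Genes of interest to butyrate and Wnt biology were given whatever their values. JUN held its region in all 4 cut lists, with ranks 1504 and 1761 in NaBu and 3182 and 2204 untreated. MYC did so at ranks 525 and 268 against 1235 and 607, in a stretch of chromosome 8 where local background was 10.9 times the commonest value in NaBu 2 and 16.9 and 15.1 times untreated. FOS had height 16.4 and 16.5 in NaBu and 44.2 and 57.7 untreated, with ranks of 5124 and 1627 against 51 and 23. CCND1, the cyclin D1 gene, ranked 5314 and 8616 in NaBu and 1301 and 1812 untreated. For each of JUN, MYC, FOS and CCND1 the best region overlapped a region of an input list in at least 1 library.

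CDKN1A, the p21 gene known to respond to deacetylase inhibitors, had no TSS region in either NaBu list. In untreated cells it ranked 24230 and 26025, outside the cut lists, so it counted as neither gained nor lost at equal numbers. KLF2 ranked 21174 in NaBu 1 and 13307 and 12421 untreated. CTNNB1, the beta-catenin gene, had no region at its annotated start in any library.

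Gene lists are given by counts at equal numbers beside the protein-coding background of 1.01% gained, 9.8% lost and 7.6% held by all 4. Only a gene held in both untreated lists can be lost, so lists with more held members can exceed the 9.8%. The untreated cut lists held 5443 and 5514 of 19970 protein-coding genes, and 1957 were lost. They held 51 and 54 of 63 ribosomal protein genes and 26 and 27 of 30 proteasome genes. Of 26 replication and mitosis genes they held 15 and 16, and of 26 adhesion genes 11 each. AP-1 and immediate early genes, which encode the fast transcriptional response to growth signals, had 13 of 18 held by all 4, 0 gained and 1 lost, KLF4. The 13 included FOSB, FOSL1, FOSL2, JUNB, JUND, EGR1, IER2, DUSP1, DUSP6 and KLF6. At equal covered length FOSL2, JUNB, IER2, JUND and FOSB were counted as gained and no member as lost. EGR1 ranked 750 and 2474 in NaBu and 954 and 679 untreated, so that its groups overlapped.

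Proteasome genes had 14 of 30 members lost (46.7%), 6 held by all 4 and none gained. PSMD14, the deubiquitinase of the proteasome lid, ranked 80488 in NaBu 1 and 320 and 624 untreated, with heights of 12.9 against 33.7 and 30.1. PSMB5, which encodes a catalytic subunit, ranked 521 and 1165 untreated and was in neither NaBu list. Of the 14, 9 were also lost at equal covered length, when 10 members were lost and 1 gained. The common depth gave 5 lost.

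Cytosolic ribosomal protein genes had 18 of 63 lost (28.6%), 21 held by all 4 (33.3%) and 1 gained, RPL28. RPL10A ranked 1232 and 1895 and RPLP2 1062 and 1178 in untreated cells, with no region in NaBu. RPL19, at ranks 518 and 159 in NaBu and 32 and 13 untreated, was held by all 4. At equal covered length 7 were lost and 3 gained, and at the common depth 10 were lost and none gained. The 28 nuclear oxidative phosphorylation genes had 6 lost and 6 held by all 4, among them NDUFA4, whose region ranked 5 and 7 in NaBu and 6 and 7 untreated.

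DNA replication and mitosis genes had 8 of 26 lost and 1 held by all 4, MCM4. MCM5, a helicase subunit gene, ranked 490 and 776 in untreated cells and was in neither NaBu list. MCM2 ranked 22182 in NaBu 1 and 2632 and 2332 untreated. MCM6, RFC4, CDC6, ORC1, CENPA and KIF11 were the other lost members, and MCM2, MCM5 and ORC1 were lost at equal covered length too. Of 25 genes of cell cycle entry and CDK inhibition none was lost and 1 was gained, CCND2, the cyclin D2 gene, at ranks 4878 and 7622 in NaBu and 163720 and 59965 untreated.

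Cell-substrate adhesion and actin genes had 8 of 26 lost and none held by all 4. ITGA3, an integrin gene, ranked 1825 and 2726 in untreated cells and was in neither NaBu list, and it alone of the 8 was also lost at equal covered length. ITGAV, TLN1, ACTN1, ACTN4, MYL9, EZR and TTC7A were the others. Genes of the epithelial-mesenchymal transition had 5 of 20 lost, VIM, ZEB1, CLDN7, DSP and ESRP1, which are markers of both states, and 4 held by all 4. At the common depth 1 of the 20 was lost and 1 gained.

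Histone acetyltransferase genes had 6 of 22 lost, including EP300, CREBBP and KAT5, and 2 held by all 4. KAT5 ranked 310 and 709 untreated and HAT1 3425 and 2210. HAT1 kept a region at rank 81862 in NaBu 1. Deacetylase and sirtuin genes had HDAC4 and SIRT3 lost of 18, with HDAC6, SIRT2 and SIRT5 held by all 4. Acyl-lysine reader genes had YEATS2 and YEATS4 lost of 19, with BRD2 at ranks 193 and 651 in NaBu and 227 and 90 untreated. Replication-dependent histone genes had 7 of 35 lost and 5 held by all 4, and these genes share promoters and near-identical copies.

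The remaining lists had few members called at the TSS. The Wnt list had 1 of 24 lost, BCL9, and 1 held by all 4, GSK3B. Of 21 TGF-beta, SMAD and ID genes, ID1 was gained and SKI and BMPR1A were lost. ID1 ranked 5145 and 2572 in NaBu and 14249 and 32257 untreated, while its heights, 15.2 and 11.1 against 13.4 and 11.3, overlapped between the groups. Genes known to respond to deacetylase inhibitors had 1 gained, TXNIP, and 3 lost of 20, SAT1 and MUC2 among them. Of 26 genes of short-chain fatty acid uptake, sensing and metabolism SLC16A3 and ACLY were lost and ETFB was held by all 4. Unfolded protein response genes had PDIA4 gained and EIF2AK3 lost of 18, with HSPA5, HSP90B1, XBP1, DDIT3 and HERPUD1 held by all 4.

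**Figure D4:**
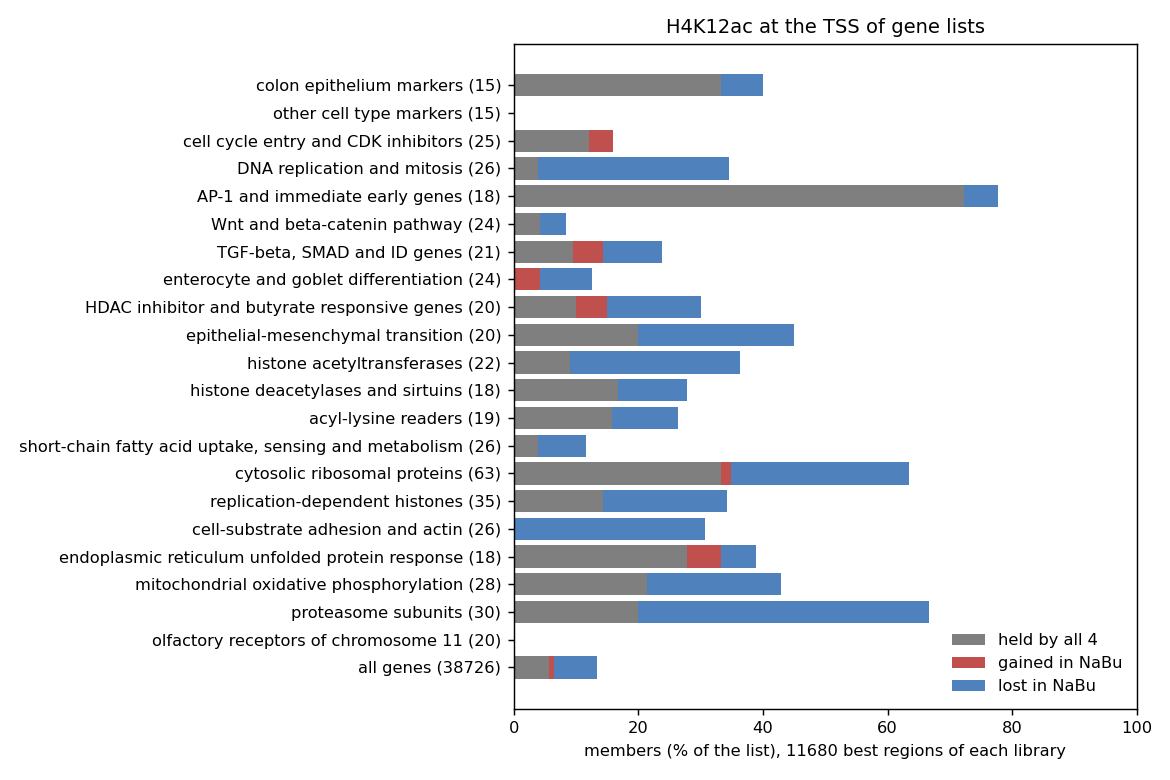
Members of 21 gene lists held by all 4 libraries, gained or lost at the TSS (x axis, % of the list, 11680 regions per library), with the number of members in parentheses and all 38726 genes as the last bar. AP-1 and immediate early genes have the largest grey share, 72.2%, and proteasome genes the largest blue share, 46.7%.

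Gene body coverage was measured outside the TSS window over 26198 genes with at least 5 kb left. A gene was gained when the lower NaBu value exceeded the higher untreated value by at least 1 percentage point, and lost in the opposite case. At equal numbers 252 bodies were gained (0.962%) and 2133 lost (8.14%). The lists covered 5.77 and 4.51 Mb in NaBu and 14.997 and 13.956 Mb untreated, so that coverage was lower in NaBu genome-wide. At equal covered length the counts were 558 gained and 535 lost. With all regions they were 43 gained (0.164%) and 11644 lost (44.4%).

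The lost bodies included genes almost wholly covered in untreated cells. FOSL1, the AP-1 subunit FRA1, had 97.2% and 96.4% of its body covered in untreated cells and 5.50% and 5.33% in NaBu, while its TSS region was held by all 4. HOXA10 had 91.3% and 89.6% against 3.87% and 2.74%, and the overlapping gene ENSG00000257184 had 83.3% and 89.1% against 15.2% and 12.8%. SLC2A1, the GLUT1 glucose transporter gene, had 64.8% and 74.4% against 4.25% and 4.17%, and NSMF 70.7% and 70.6% against 0 in both NaBu libraries. Of the lost bodies, 378 belonged to genes with a TSS region held by all 4 and 411 to genes lost at the TSS.

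Pathway members with lost bodies included CCND1, covered over 50.3% and 67.0% in untreated cells and 0% and 4.16% in NaBu. AXIN2, a Wnt target, had 28.1% and 16.5% against 0 in both. CTNNB1 had 11.2% and 12.4% against 1.05% and 0.996%, in a body that may include other start sites. MYC had 23.3% and 20.2% against 12.6% and 7.69%. Among the 24 Wnt genes 4 of 21 bodies were lost and none gained.

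Gained bodies were fewer at equal numbers. CD93, which encodes a C-type lectin receptor, had 38.0% and 36.7% of its body covered in NaBu and 0 in both untreated libraries. With all regions CD93 had 40.9% and 36.7% against 4.21% and 0. APOC4-APOC2, a readthrough gene, had 37.9% and 15.5% against 0, and 5.85% and 11.02% untreated with all regions. B3GNT3, a glycosyltransferase gene, had 15.2% and 12.3% against 0, and with all regions 18.8% and 12.3% against 8.89% and 7.98%. Some gained bodies did not keep their call in the full lists. HES2 had 29.8% and 15.9% against 0, but with all regions 35.8% and 15.9% against 28.0% and 24.9%, so that the groups overlapped. POLD4, a DNA polymerase delta subunit gene, had 26.3% and 22.3% against 10.8% and 0, and with all regions it was lost, at 39.0% and 22.3% against 58.3% and 55.9%. Its TSS was gained at equal numbers, but its percentiles among the ranked genes overlapped between the groups. CDH1, the E-cadherin gene, had 2.05% and 2.42% against 0, and with all regions 4.95% and 2.42% against 7.24% and 4.26%. Of the 252 gained bodies, 14 belonged to genes also gained at the TSS.

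Without regard to genes, the 4 cut lists merged into 23836 regions, of which 1981 were gained (8.31%), 4174 lost (17.5%) and 2737 held by all 4 (11.5%). Gained regions were mostly distal, with 17.7% of summits within 1 kb of a TSS and a median distance of 15102 bp, whereas 55.0% of lost summits lay within 1 kb at a median of 688 bp. Of the gained regions, 60.3% overlapped a region of both full untreated lists and 23.02% a region of neither. Windows of 200 bases at their summits had 47.6% GC and a mean CpG ratio of 0.29, against 59.2% and 0.55 at lost summits. The AP-1 site was found in 3.13% of gained and 2.23% of lost windows, and in 3.48% and 3.10% of windows 5 kb to either side. The GC box was found in 5.91% and 25.2%.

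Of the 5 gained regions with the best ranks, 4 lay on chromosome 8. The leading one, chr8:127036054-127037294 in an intron of PCAT1, a prostate cancer lncRNA, ranked 1 and 3 in NaBu. In the full untreated lists it ranked 38900 and 33884, over a local background of 79.1 and 64.3 fragments, where the commonest values were 6.74 and 5.75. The next, chr8:125515081-125516758 in an intron of ENSG00000253111, ranked 16 and 8 in NaBu. The distal region 17056 bp from PTPRC, chr1:198621159-198621625, ranked 56 and 132 with 16.0- and 8.7-fold enrichment, and it overlapped no region of either full untreated list. PTPRC marks blood cells, and its own TSS window held no region of the cut lists. The region near BOD1, the next in rank, ranked 143 and 139, was in neither full untreated list and overlapped a region of an input list.

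The lost regions with the best ranks lay at promoters of CEP76 and PSMG2, ATG101, ZC3H6 and CSNK1D and at 1 intergenic site 3085 bp from ENSG00000231704. The ATG101 region, at a gene of autophagy initiation, ranked 72 and 29 untreated and 14449 in NaBu 1. The ZC3H6 region ranked 47 and 96 untreated and was in neither NaBu list. Genes gained made up between 0.112% (chromosome 22) and 1.66% (chromosome 19) of a chromosome's genes, and genes lost between 2.47% (chromosome 18) and 12.1% (chromosome 17).

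Ranks of TSS regions were tested over the 3853 genes held in all 4 full lists, with limma on normal scores of the ranks within each list. At a Benjamini-Hochberg adjusted p under 0.05, 67 genes ranked higher in NaBu (1.74%) and 47 lower (1.22%), and 578 and 561 had an unadjusted p under 0.05. The 67 included 44 genes already gained at equal numbers. MACC1 had percentiles of 83.6 and 78.1 in NaBu and 0.26 and 0.23 untreated (limma, adjusted p = 0.0245). ARHGEF38 had 91.9 and 94.5 against 11.8 and 3.53 (limma, adjusted p = 0.0352), and HNF4A 75.9 and 80.9 against 9.86 and 6.15 (limma, adjusted p = 0.0352). The lncRNA ENSG00000255325 on chromosome 8 and ENSG00000250522, which shares the region of ARHGEF38, were also among the 5 largest rises, with ENSG00000285526 and HPN-AS1.

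Ranks fell most at CHM, ALG5, TXN, HACD2 and MYLK-AS1. TXN, the thioredoxin gene, had percentiles of 1.03 and 0.03 in NaBu and 78.1 and 88.6 untreated, and heights of 5.84 and 5.41 against 26.6 and 34.4 (limma, adjusted p = 0.0352). CHM, which encodes a Rab escort protein, fell by 86.5 percentile points and ALG5, a gene of N-glycan assembly, by 83.3 points. HACD2, of fatty acid elongation, and MYLK-AS1 share 1 region and fell by 81.1 points. Among list members AURKA, TRIB3, H4C8 and HNF4A ranked higher and PSMB7 lower. FOS at adjusted p = 0.0512 and MYC at 0.277 (limma) did not pass. The 8 ranked proteasome genes had a median difference of -22.2 points and the 31 ribosomal protein genes -12.7, against 0.10 over all tested genes. With untreated 1 left out limma called 0 genes in either direction, and 206 and 142 had an unadjusted p under 0.05. With untreated 2 left out it again called 0, with 186 and 139 at an unadjusted p under 0.05. These fits assume that the lone untreated library varies like the NaBu pair.

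**Figure D5:**
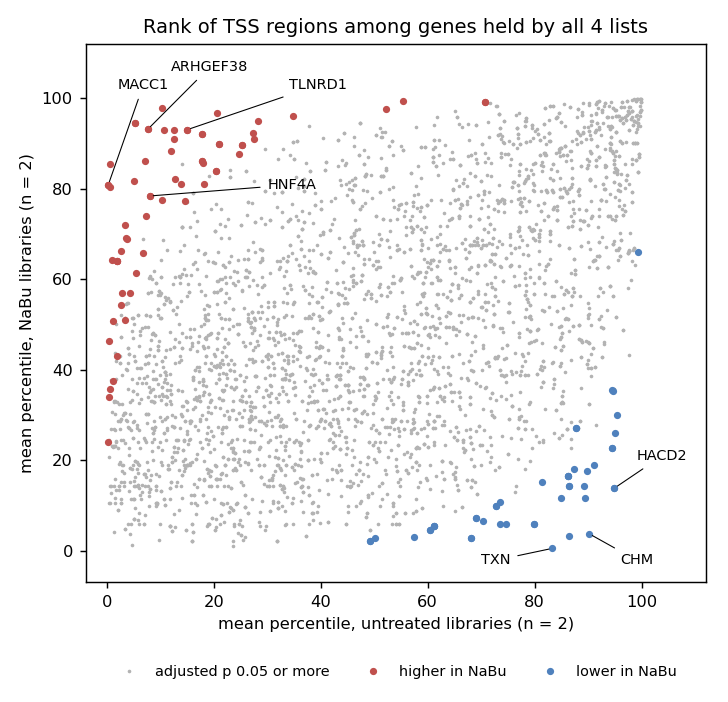
Mean percentile of each gene's best TSS region in untreated libraries (x axis, n = 2) and NaBu libraries (y axis, n = 2) among 3853 genes held in all 4 full lists, where 100 is the strongest. The 67 genes that ranked higher in NaBu (red) lie mostly at the upper left, with MACC1 and ARHGEF38, and the 47 that ranked lower (blue) at the lower right, with TXN and CHM.

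Other marks of the same study were read at these genes. H3K18ac gave 391 gained (1.01%) and 2431 lost genes (6.28%) between NaBu and untreated lists at equal numbers, from other ChIP libraries with the same run tags. Genes gained for both marks numbered 98, which is 31.2% of those gained for H4K12ac and 25.1% of those gained for H3K18ac. Genes lost for both numbered 914, 33.8% and 37.6% of the respective lists. None of the 10 leading lost protein-coding genes was called lost for H3K18ac. Each of these had an H3K18ac region within the cut in at least 1 NaBu list. ARHGEF38, C19orf47, WIPI1, SLC22A15, MACC1 and SMIM6 were gained for both marks. TLNRD1, MOSPD3, PMAIP1 and HNF4A were gained for H4K12ac and not for H3K18ac, a difference that was not tested. For H3K18ac, TLNRD1 ranked 474 and 772 in NaBu and 3232 and 3823 untreated. MOSPD3 ranked 197 and 371 against 4729 and 7299, and PMAIP1 1154 and 399 against 5870 and 15288. R3HDML-AS1, which shares the region of HNF4A, ranked 2235 and 533 against 10594 and 11049. So these ranks were also better in NaBu, and no gain was called because an untreated region lay within the cut.

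The H4K12 butyrylation lists of NaBu cells held a TSS region at 55.7% and 44.6% of the genes gained in H4K12ac, at 72.8% and 56.3% of those held by all 4 and at 6.99% and 4.03% of those lost, compared with 7.93% and 5.75% of all genes. These lists, of 9642 and 8158 regions, come from the same treatment and run tag as the NaBu acetyl lists. Under propionate, H4K12ac lists gave 65 gained (0.168%) and 3341 lost genes (8.63%) against the same 2 untreated libraries as here, so the counts of both treatments share their controls. Genes lost under both treatments numbered 1798, which is 66.5% of those lost in NaBu and 53.8% of those lost under propionate. Genes gained under both numbered 9, 2.87% and 13.8% of the respective lists.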

How the data were processed

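Enriched regions of SW480 ChIP-seq libraries were analysed as deposited. The submitters' processing notes name bcl2fastq 2.17.1, cutadapt 1.8.1, Bowtie2 2.3.1, MACS2 2.1.0 and hg38. Per the study's methods the authors aligned with Bowtie2 and called regions with MACS2 with input as control. A list per library was deposited, and the list names give p 0.01. The deposited lists give a fold ratio over background, −log10 p and −log10 q. All 500354 regions lay inside the hg38 chromosome lengths. Genes were the 19970 protein-coding and 18756 lncRNA genes of GENCODE release 44.

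Lists were cut to equal numbers by −log10 p. Pileup and background were solved from fold and p where both matched whole steps, to within 0.01 of −log10 p, for 99.4% to 100.0% of regions per library. Reads were not analysed here, so no total depth is given. Ranks were tested with limma 3.58.1 in R 4.3.3, two-sided, with Benjamini-Hochberg adjustment. On simulated ranks of 3853 genes, 200 of them shifted, this recovered 3% of shifts of 1, 72.5% of shifts of 2 and 92.5% of shifts of 3 score units. False calls numbered 0, 9 and 5. The simulation gave all 4 libraries equal noise, unlike the data, where replicates correlated at 0.60 in NaBu and 0.91 untreated. Replicate numbers did not pair the libraries (correlation of deviations -0.035). Named genes were the best-ranked 10 protein-coding and 3 lncRNA genes per direction at the TSS, the 5 largest gaps in bodies and in ranks, 5 regions per direction, members of 21 lists and 8 genes always given, of which 1 is not reported here. Members and lists were chosen with earlier results of these data known. Tools were Python 3.11.15, numpy 2.4.6, pandas 2.3.3, scipy 1.17.1 and matplotlib 3.10.9.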

Additional observations from a re-analysis of the deposited data

Results flagged for a closer look

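At equal numbers of regions, 10 genes were gained for H4K12ac and lost for H3K18ac between untreated and NaBu cells, in every library of each mark: GNAT2, FMO5, CHD1L, ENSG00000285068, ALMS1, DAGLB, KDELR2, ATP5MK, PDCD11 and RAD51B. By their ranks they use 6 regions, and 4 of these serve a pair of neighbouring genes. A further 6 genes were lost for H4K12ac and gained for H3K18ac, namely CTTNBP2NL, ZNG1B, BRK1, HOMER2, RAMAC and DYNLRB2. The opposite directions of the 2 marks drew attention to them, and the difference was not tested. Of all genes, 6.28% were lost and 1.01% gained for H3K18ac. The 10 of 314 genes gained for H4K12ac and the 6 of 2704 lost are both under those shares. Some of their ranks lay near the limit of 11680. RAD51B ranked 7471 and 9635 for H4K12ac in NaBu and 12089 and 17023 untreated, and 13664 and 18222 for H3K18ac in NaBu against 9054 and 10858 untreated. HOMER2 ranked 7464 and 10793 for H4K12ac in untreated cells only, and 6885 and 5802 for H3K18ac in NaBu against 16523 and 12245 untreated.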

How the results depend on the processing

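Lost genes outnumbered gained genes at the TSS in 15 of 16 alternatives and in bodies in 13 of 14, equal covered length being the exception in both. Counts below are TSS gained, TSS lost, bodies gained and bodies lost, where 314, 2704, 252 and 2133 were reported. All regions gave 48, 8008, 43 and 11644, and regions with q under 0.05 gave 8, 10828, 11 and 12414. Equal covered length, chosen after seeing the data, gave 1034, 478, 558 and 535. Common depth gave 193 genes gained at the TSS. Protein-coding genes alone gave 202 gained TSS and 163 gained bodies, by construction fewer. Without NaBu 2 and with 88658 regions per list the counts were 1359, 6579, 1974 and 7269. Body gaps of 0 and 5 points gave 820 and 34 gained and 3590 and 658 lost bodies. Leaving out 1 library gave 450 to 776 gained and 3370 to 3626 lost TSS, and 307 to 669 gained and 2235 to 3117 lost bodies. The counts moved by over 1.5 times without NaBu 1 (713 gained TSS, 416 gained bodies) and without NaBu 2 (776 and 669).

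The promoter share difference of -22.1 points reversed with all regions (8.90, exact permutation p = 1) and with q under 0.05 (15.5, exact permutation p = 0.3333), and ranged from -26.8 to -20.3 in the other 11 alternatives. The limma rank counts, 67 higher and 47 lower, were 0 to 505 higher and 0 to 563 lower with 1 library left out. Leaving out NaBu 1 gave 455 and 527, NaBu 2 gave 505 and 563, and either untreated library gave 0 and 0. With the replicate number as a block limma called 300 higher and 301 lower, although the numbers did not pair the libraries. Ranking by fold gave 104 higher, and protein-coding genes alone 43 higher. Windows of 500 bp gave 38 and 24, windows of 2000 bp gave 116 and 90, and leaving out genes over input regions gave 31 lower. The causes of these changes were not tested. The scaled background of the untreated lists was 8.97 and 7.44 times that of the NaBu lists. Before scaling it was 5.04 and 21.7 fragments per kb in NaBu 1 and NaBu 2, against 38.5 and 31.9 untreated. Its part in the losses was not tested. At common depth 1452 of the 2704 lost genes kept their class, CEP76, METTL16, SLBP and TCF3 among them, and C17orf49, CSNK1D and SLC16A3 did not. Of the 314 gained genes 91 kept their class, MACC1 and SMIM6 among them, and ARHGEF38, TLNRD1, WIPI1 and PMAIP1 did not. Neither did C19orf47, MOSPD3, SLC22A15, ENSG00000285526 and R3HDML-AS1, which shares the region of HNF4A.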
